A study of Mus musculus with 13 samples.

Results

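Voltage-gated sodium and calcium channels let neurons fire and release transmitter. Their genes were followed here in a hedgehog-driven mouse brain tumour, in a preparation of the cells from which such tumours are held to arise, and in embryonic brainstem. The members were all probe sets on the array whose platform gene symbol was Scn with a number and a or b, or began with Cacna1, Cacna2d, Cacnb or Cacng. This rule used no measured value and found 85 of 34945 probe sets with a single symbol, which stand for 35 of 18193 genes. RNA came from 6 primary medulloblastomas of Ptch1(+/-) mice (Ptch1 MB, called tumours), from 3 samples of wildtype granule neuron precursors of the cerebellum, taken on postnatal day 7 (P7 GNPC), and from 4 samples of wildtype embryonic dorsal brainstem (E16.5 DBS). Ptch1 encodes the receptor that restrains the hedgehog pathway, and the tumour mice carried an inactivated copy of it. All tissue was untreated, and each sample was a different mouse and a single array. The labels give no strain, sex, tumour age, litter or batch, and no statement on whether the precursor cells were purified. Age therefore goes with tissue in the normal samples, and batch and group cannot be told apart. Ctnnb1 tumours of the same series were not analysed here.

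A voltage-gated sodium channel is a large pore-forming alpha subunit (the Scn genes ending in a) with small beta subunits (those ending in b) that set its gating and its place in the membrane. A voltage-gated calcium channel has a pore-forming alpha1 subunit (Cacna1), an extracellular alpha2delta subunit (Cacna2d) and a cytoplasmic beta subunit (Cacnb), the last 2 raising the number of channels at the surface. Most Cacng genes expressed in brain encode TARPs, which are auxiliary subunits of AMPA-type glutamate receptors rather than of calcium channels. In the developing cerebellum and brainstem these genes are switched on as neurons leave the cell cycle and grow axons and synapses.

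Intensities are in array units, and array medians lay between 91.3 and 117.5. A gene entered the test when a probe set exceeded its own array's median on at least 3 of the 13 arrays, and was then read by its brightest probe set. Of the 85 member probe sets 50 passed, and of the 35 member genes 26 passed. Levels of different probe sets are not compared with each other. Atoh1, which defines granule neuron precursors, lay between 6383.3 and 11733.4 in tumours, between 825.7 and 1251.8 in GNPC and between 56.1 and 166.5 in DBS. Hoxa5, a posterior hindbrain gene, was at least 5534.1 in each DBS sample and at most 17.1 elsewhere. The GNPC samples also held RNA of other cerebellar cells, and Calb1, a Purkinje cell calcium buffer, was at least 13398.9 in each of them. Ptch1 itself ranged from 3453.7 to 11575 in tumours and from 5563.3 to 6972.4 in the normal samples, and which part of the gene was inactivated is not given in the sources used here.

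The 9 member genes that did not pass were at or near background. They were Scn4b, Scn7a, Scn10a, Scn11a, Cacna1f, Cacna1s, Cacna2d4, Cacng1 and Cacng6. Their 14 probe sets ranged from 1.1 to 153.8 with a median of 25.4. Several of them belong to other tissues: Scn10a and Scn11a to peripheral sensory neurons, Cacna1s and Cacng1 to skeletal muscle, Cacna1f to the retina. The top of that range was Scn4b in tumour 2, while in the other tumours Scn4b was at most 83.9. Scn4b is a beta subunit rich in Purkinje cells.

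**Figure D1:**
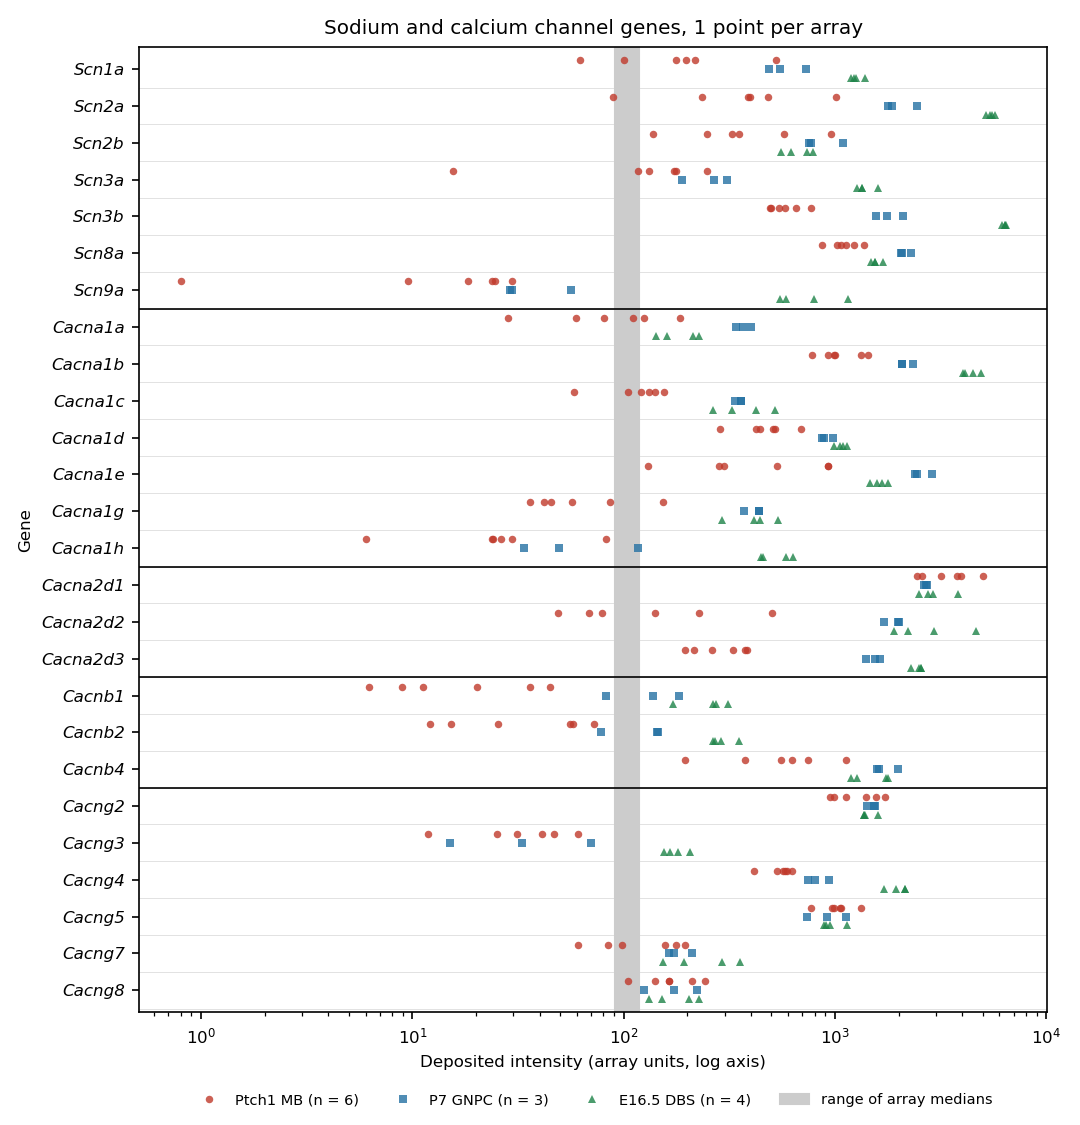
Deposited intensity (log axis, array units) of the 26 channel genes that passed the filter, 1 point per array: red circles are 6 tumours, blue squares 3 GNPC and green triangles 4 DBS samples, and the grey band is the range of array medians, 91.3 to 117.5. Most red points lie left of the blue and green ones, while for Cacna2d1, Cacng2, Cacng5 and Cacng8 the 3 groups overlap.

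In the tumours no channel gene was called higher than in either normal tissue, and many were lower. A gene is called at a limma adjusted p under 0.05 over all 12270 genes tested and a difference of at least 1 (2-fold) on the scale log2(intensity + 18), on which all differences and folds are given and which understates the change of dim genes. Against GNPC, 14 of the 26 genes fell, 0 rose and 12 were not called. Over all genes 14.2% were called lower and 6.59% higher (20.8% in either direction). The groups were apart, with every tumour below every GNPC sample, for 15 of the 26 genes, beside 24% of all genes. Against DBS, 18 fell, 0 rose and 8 were not called, beside 20.9% of all genes called lower and 15.5% higher (36.3% in either direction), and every tumour lay below every DBS sample for 19, beside 28.9% of all genes. At an unadjusted limma p under 0.05, 0 of the 26 were higher in either comparison, and 17 and 22 were lower. The share of all genes at this looser threshold, which has no 2-fold minimum, was not computed, so these counts have no background beside them. The median difference of the 26 was -1.11 against GNPC and -1.90 against DBS, where that of all genes was -0.03 and 0.00. Among 24 further probe sets of 12 of these genes, 24 had the sign of the brightest probe set against GNPC and 21 against DBS. Some of them exceeded the array median in no tumour, so their sign follows from the filter in part. The 2 comparisons share the tumour arrays, so their values stand side by side and neither supports the other. In bulk RNA, fewer neurons and less channel RNA per neuron cannot be told apart.

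By subunit, the falls against GNPC were 4 of 7 Scn, 5 of 7 Cacna1, 2 of 3 Cacna2d, 3 of 3 Cacnb and 0 of 6 Cacng genes. Against DBS they were 5 of 7 Scn, 6 of 7 Cacna1, 2 of 3 Cacna2d, 3 of 3 Cacnb and 2 of 6 Cacng genes. Cacna1h, Cacng3 and Scn9a exceeded the array median in DBS samples alone. They entered the test through the group where they are high, so their fall against DBS follows from the filter in part. For Cacnb1 and Cacnb2 no tumour exceeded its array median, so their falls against both normal tissues follow from the filter in part too. When arrays were instead scaled to a common median, the median of all genes moved to 0.21 against GNPC and 0.12 against DBS. The share of higher calls over all genes in the GNPC comparison then went from 31.7% (809 higher, 1743 lower) to 48.8% (1309 higher, 1375 lower), and of the channel genes 12 and 18 were called lower and 0 higher.

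**Figure D2:**
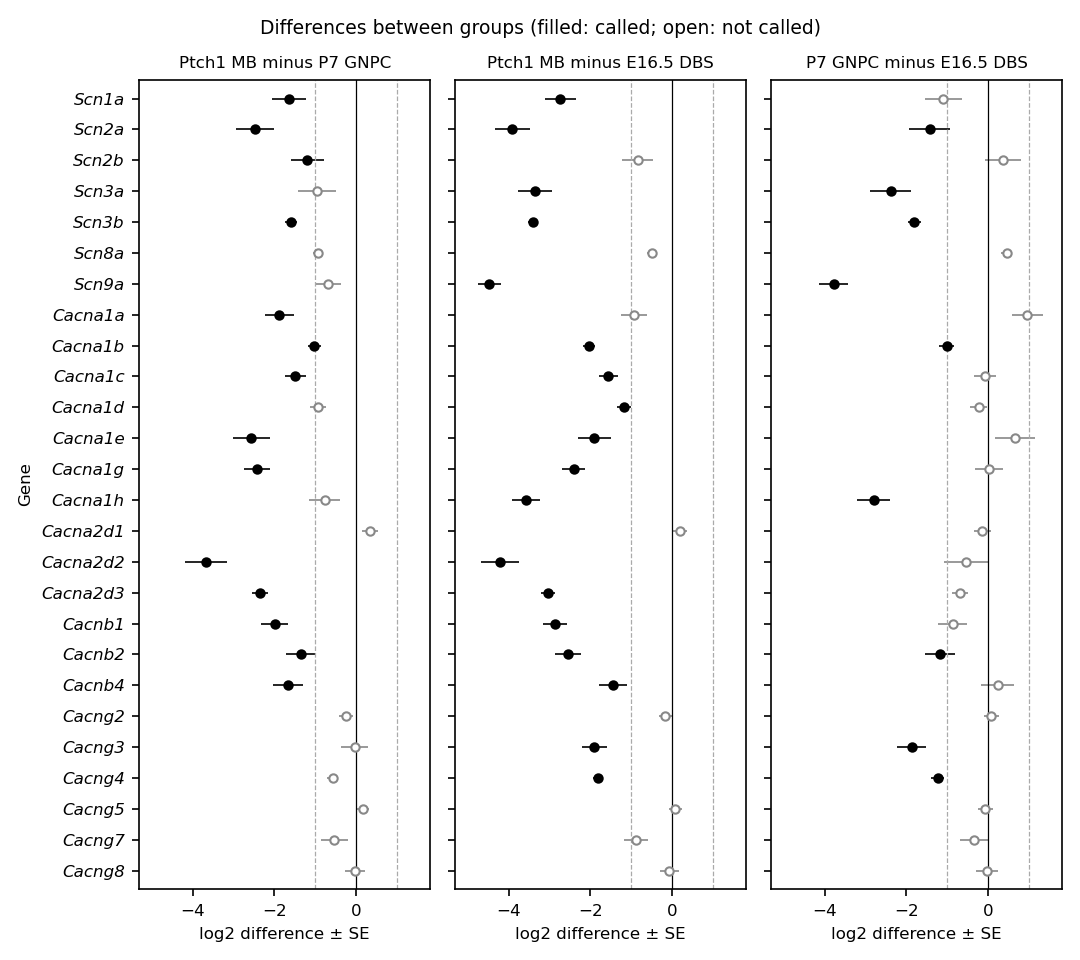
Difference between group means on the log2(intensity + 18) scale with its standard error, for each of the 26 genes and each of the 3 comparisons; filled points were called, open points were not, and dashed lines mark 2-fold. In the tumour comparisons every filled point lies left of 0, reaching -3.67 for Cacna2d2 against GNPC and -4.47 for Scn9a against DBS.

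Among the sodium channel pores, Scn2a had a large difference in each tumour comparison. It encodes the main channel of immature axons and of the axon initial segment in excitatory neurons. Its intensity (probe set 1435933_at) in tumours was 88.6 at the lowest, 391 at the median and 1012.3 at the highest. GNPC 1 to 3 had 2438.7, 1779.6 and 1869.3, and DBS 1 to 4 had 5525.3, 5427.4, 5690.8 and 5161.1. No tumour reached the lowest GNPC value, and no GNPC sample reached the lowest DBS value. The tumours were 5.58-fold below GNPC (-2.48 ± 0.47 SE, limma adjusted p = 0.000527) and further below DBS (-3.91 ± 0.42, adjusted p = 1.08e-06). GNPC lay 2.70-fold below DBS (-1.43 ± 0.50, adjusted p = 0.0316), but that call was lost without GNPC 2, GNPC 3 or any DBS sample, with adjusted p from 0.054 to 0.0932. The other 2 probe sets of Scn2a past the filter were called in the same direction in all 3 comparisons. One of them, 1427281_at, exceeded the array median in no tumour (1.3 to 60.6) and passed through normal samples alone. Its tumour calls therefore follow from the filter in part.

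Scn1a encodes the pore that drives firing of many inhibitory neurons and of Purkinje cells. It stood between 62.2 and 527 in tumours with a median of 187, at 732.1, 549.6 and 489 in GNPC, and at 1227.7, 1386.7, 1191.1 and 1258.2 in DBS. Tumour 2, at 527, overlapped GNPC, and the other tumours did not exceed 217.4. The tumours were 3.11-fold below GNPC (adjusted p = 0.00442) and 6.65-fold below DBS (adjusted p = 1.28e-05). The difference of GNPC from DBS, -1.10 ± 0.45 SE, was not called (adjusted p = 0.0595). It was called, at the same size, when tumour 2 or tumour 3 was left out of the pooled spread (adjusted p = 0.0104 and 0.0221). It was also called with an added value of 64 (-1.04), arrays at the same median (-1.21), quantile normalization (-1.19) or only the 2 groups fitted (-1.10). For probe set 1450120_at it was called as well (-1.08, adjusted p = 0.0384 over probe sets), and for 1441728_at it was not (-0.68).

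Scn3a and Scn9a had a different order of groups, with low levels in tumours and GNPC and high levels in DBS. Scn3a is the pore typical of embryonic neurons. Its intensity in DBS was 1340.2, 1599.7, 1339 and 1270.5, in GNPC 268.4, 309.1 and 189.5, and in tumours 15.6 to 248 with a median of 153. Tumours were 10.2-fold and GNPC 5.21-fold below DBS (adjusted p = 4.91e-06 and 0.00146). Tumours and GNPC overlapped, and their difference of -0.97 ± 0.46 SE was not called (adjusted p = 0.0953), though without tumour 1 it was (-1.16). Scn9a, best known from peripheral sensory neurons, was 551.7, 1155.1, 582.9 and 792.1 in DBS. It was 29, 29.5 and 56.4 in GNPC and between 0.8 and 29.6 in tumours, all below the array medians. Its differences from DBS were -4.47 ± 0.29 SE in tumours and -3.78 ± 0.35 in GNPC (adjusted p = 5.45e-09 and 1.29e-06). Their size depends on the added 18, because the low groups were at background. The other 3 Scn9a probe sets past the filter had the same calls against DBS, but all 4 passed it through the DBS arrays alone and had to differ, so these calls lend each other no support.

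Scn8a, the pore of mature axon initial segments and nodes of Ranvier, was near the 2-fold minimum. It lay between 866.1 and 1373.4 there with a median of 1101, at 2077.6, 2047.8 and 2288.2 in GNPC, and at 1540.5, 1483.3, 1679.4 and 1541.4 in DBS. The groups did not overlap. The differences of -0.94 ± 0.13 SE from GNPC and -0.49 ± 0.12 from DBS had adjusted p of 3.87e-05 and 0.00161 but missed the 2-fold minimum. Without tumour 2 the first was called (adjusted p = 1.24e-05). A second probe set, 1457412_at, was called lower in both (-1.32 and -1.12), and the remaining 2 were called in neither.

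Of the beta subunits, Scn3b fell with little spread. It was 6365.2, 6346.5, 6187.4 and 6414.3 in DBS, 2096, 1767.4 and 1570.4 in GNPC, and 493.3 to 773.1 in tumours with a median of 561. The 3 groups were apart in every sample, and each difference was called: 3.03-fold between GNPC and tumours, 10.6-fold between DBS and tumours, and 3.49-fold between DBS and GNPC (adjusted p = 1.14e-06, 2.81e-11 and 5.70e-07). Scn2b was 138.1 to 960.6 in tumours with a median of 338, 1089.2, 768.1 and 748.9 in GNPC, and 617.5, 782.5, 553.7 and 734.9 in DBS. Tumour 2 lay inside the GNPC range and above all DBS samples. The tumours were 2.30-fold below GNPC (-1.20 ± 0.41 SE, adjusted p = 0.0244), and this call was lost without tumour 3 (-0.94) or GNPC 1 (adjusted p = 0.107). It was also lost with arrays at the same median (-0.96) and with only the 2 groups fitted (adjusted p = 0.0528). Against DBS the difference of -0.85 was not called, but without tumour 2 it was (-1.12).

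A second Scn2b probe set, 1430648_at, gave another picture of the normal tissues. It read 40.9, 100.5, 10.8 and 47.1 in DBS, 815.9, 503.9 and 445.9 in GNPC and 48.5 to 605.1 in tumours. In the test of all 21628 probe sets past the filter it was called higher than DBS in tumours (1.96, adjusted p = 0.00353) and in GNPC (3.29, adjusted p = 0.000638). For the probe set with the higher mean neither difference was called, and in tumours its sign was the opposite (-0.85), while in GNPC both probe sets had a positive difference (0.35 and 3.29).

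Scn3a, Scn2a, Scn1a, Scn9a and Scn7a lie in this order in a cluster on chromosome 2 (assembly GRCm38.p6). The first 4 had their highest level in DBS, and Scn7a was at background in all groups. Stretches of 250 bases before the annotated transcription start are shown for 3 of them. Beside these are Cacna2d1 and Cacna2d2, related genes of which Cacna2d2 was called lower in the tumours and Cacna2d1 was not called. Capitals mark CpG dinucleotides, and each sequence is from RefSeq, build GRCm38.p6, 5′ to 3′ on the strand of the gene. Where a gene has several starts, the window with the most CpG is shown.
Scn2a, chr2:65668436-65668685, plus strand: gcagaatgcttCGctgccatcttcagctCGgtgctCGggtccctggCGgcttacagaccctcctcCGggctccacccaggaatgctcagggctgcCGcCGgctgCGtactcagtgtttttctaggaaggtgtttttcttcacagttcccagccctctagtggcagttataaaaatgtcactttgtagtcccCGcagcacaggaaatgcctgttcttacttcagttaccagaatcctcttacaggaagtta
Scn1a, chr2:66440838-66441087, minus strand: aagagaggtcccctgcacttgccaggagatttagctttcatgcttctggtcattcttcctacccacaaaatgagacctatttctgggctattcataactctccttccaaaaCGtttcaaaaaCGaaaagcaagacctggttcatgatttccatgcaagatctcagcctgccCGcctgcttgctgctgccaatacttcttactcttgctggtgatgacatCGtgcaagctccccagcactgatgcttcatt
Scn9a, chr2:66634963-66635212, minus strand: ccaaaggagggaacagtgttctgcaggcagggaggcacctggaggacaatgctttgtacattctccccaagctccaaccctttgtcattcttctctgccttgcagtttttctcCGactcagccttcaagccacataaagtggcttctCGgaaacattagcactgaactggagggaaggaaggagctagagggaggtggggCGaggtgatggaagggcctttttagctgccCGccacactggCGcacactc
Cacna2d1, chr5:15934441-15934690, plus strand: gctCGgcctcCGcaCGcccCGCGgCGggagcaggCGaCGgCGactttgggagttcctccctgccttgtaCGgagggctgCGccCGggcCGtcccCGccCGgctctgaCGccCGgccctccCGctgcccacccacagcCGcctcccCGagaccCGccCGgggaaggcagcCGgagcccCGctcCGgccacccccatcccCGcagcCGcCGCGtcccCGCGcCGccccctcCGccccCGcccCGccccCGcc
Cacna2d2, chr9:107399630-107399879, plus strand: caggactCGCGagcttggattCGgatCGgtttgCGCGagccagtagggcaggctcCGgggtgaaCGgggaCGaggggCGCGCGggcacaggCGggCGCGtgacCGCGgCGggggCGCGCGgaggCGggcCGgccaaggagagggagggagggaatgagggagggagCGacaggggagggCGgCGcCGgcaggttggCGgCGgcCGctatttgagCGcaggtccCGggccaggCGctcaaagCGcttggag

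The sodium channel windows hold 9, 4 and 5 CpG, and the windows of Cacna2d1 and Cacna2d2 hold 36 and 34. The median over all 32851 windows of the table is 6. In all, 27 of the 35 member genes matched the table, with 37 windows. The 11 Scn windows had a median of 5 CpG and the 26 calcium channel windows a median of 9. At least 16 CpG, the upper quartile of all windows, were found in 2 of the 11 and 11 of the 26. The motif TATAAA, searched on both strands, was in 2 of the 37, among them the Scn2a window shown, and in 12.4% of all.

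The alpha2delta genes, among them the pair whose windows are shown, differed from each other in the tumours. The window of Cacna2d3, not shown, is also rich in CpG, with 30. Cacna2d2, which is abundant in Purkinje cells and whose loss causes ataxia in mice, had 1699.7, 1983 and 2005.6 in GNPC and 2219.7, 2938.6, 4644 and 1899.3 in DBS. In tumours it was 48.7 at the lowest, 110 at the median and 503.2 at the highest, in tumour 2. No tumour reached a normal sample, and the difference was 12.7-fold from GNPC (-3.67 ± 0.51 SE, adjusted p = 4.31e-05) and 18.5-fold from DBS (-4.21 ± 0.46, adjusted p = 1.20e-06). The difference of the normal tissues, -0.54 ± 0.55, was not called. Cacna2d3 was even within each group, at 195.2 to 383 in tumours, 1628.2, 1403 and 1543.4 in GNPC, and 2544.6, 2557.5, 2490.5 and 2285.5 in DBS. It was 5.10-fold and 8.23-fold lower in tumours (adjusted p = 5.37e-07 and 1.18e-09), and GNPC lay below DBS by less than the 2-fold minimum (-0.69, adjusted p = 0.013).

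Cacna2d1, the subunit that binds gabapentin, was not called. It was 2439.3 to 5021.9 in tumours with a median of 3477, 2694.3, 2723.4 and 2623.7 in GNPC, and 2918.9, 3827.6, 2759 and 2509.1 in DBS. All groups overlapped, and the differences of 0.33 ± 0.20 SE from GNPC and 0.19 ± 0.18 from DBS were not called (adjusted p = 0.174 and 0.359). A lower probe set of the gene, 1441608_at, separated DBS from the rest. It read 239.7, 323.4, 273.9 and 293.5 there, 757.7, 668.2 and 846.4 in GNPC, and 729 to 1195.3 in tumours. Its differences from DBS were 1.61 in tumours and 1.37 in GNPC (adjusted p = 1.23e-07 and 2.00e-05 over probe sets). The remaining 2 probe sets past the filter were not called in any comparison.

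**Figure D3:**
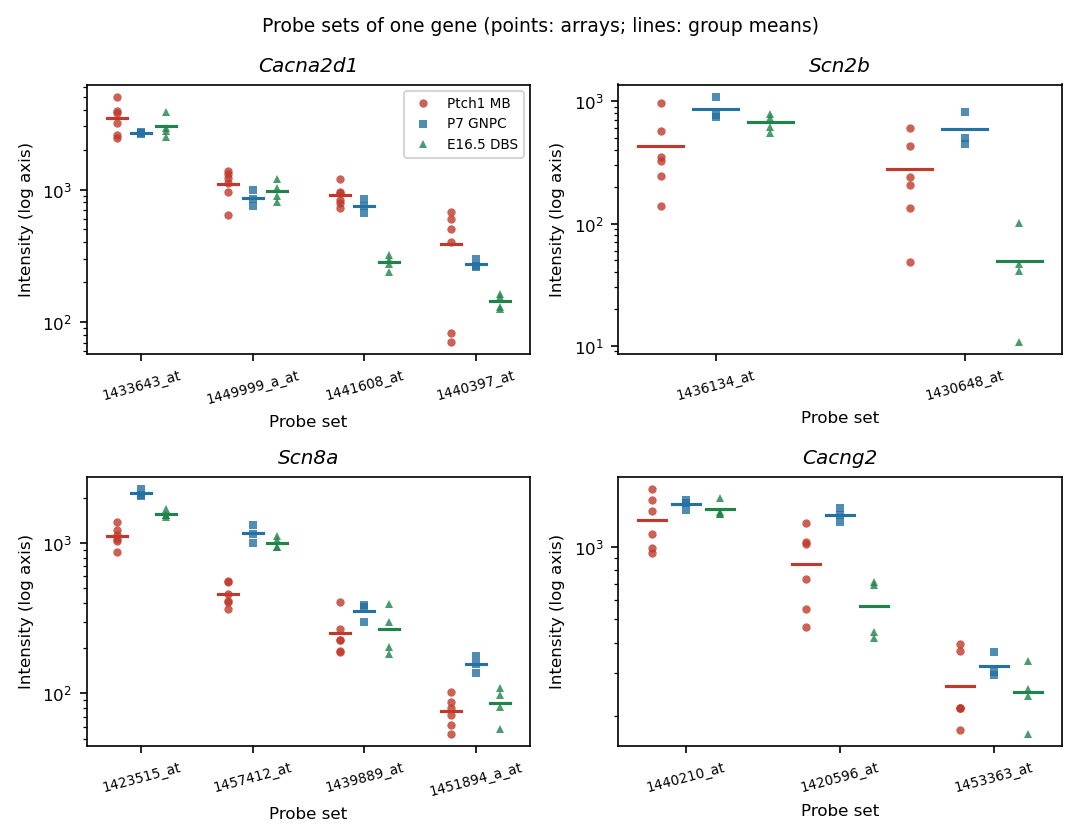
Intensity (log axis) of each probe set past the filter for Cacna2d1, Scn2b, Scn8a and Cacng2, with 1 point per array and a short line at each group mean. For Cacna2d1, Scn2b and Cacng2, a dimmer probe set was called higher in GNPC (blue) than in DBS (green), while the brightest probe set was not. That of Scn2b exceeded the array median in no DBS sample, so its call follows from the filter in part.

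Among the pores of high-voltage calcium channels, Cacna1e (R-type) fell furthest against GNPC. Its GNPC values were 2877.7, 2385.7 and 2442.3, its DBS values 1469.4, 1771.1, 1659.4 and 1573.9, and its tumour values 130.9 to 929.4 with a median of 415. The tumours were below every normal sample, by 5.90-fold against GNPC (adjusted p = 0.000307) and 3.74-fold against DBS (adjusted p = 0.000742). GNPC and DBS did not overlap, but their difference of 0.66 ± 0.48 SE was not called. Cacna1b, the N-type pore of presynaptic terminals, was above the array median in every tumour, at 775.9 to 1426.4. It was 2069.5, 2335.9 and 2082.4 in GNPC and 4136.2, 4920.8, 4049.7 and 4505.8 in DBS, so the groups were apart in every sample. The 4.12-fold difference from DBS was well past the minimum (adjusted p = 1.61e-08). That from GNPC was 2.03-fold (-1.02 ± 0.16 SE). It slipped under the minimum without tumour 3 (-0.94), tumour 6 (-0.99) or GNPC 2 (-0.97) and with arrays at the same median (-0.78). It also did so with the mean of the Cacna1b probe sets (-0.92) and with an added value of 64 (-0.99). The other Cacna1b probe sets past the filter, 1436602_x_at (-0.92) and 1460608_at (-0.82), were not called against GNPC. GNPC was 2.02-fold below DBS, which slipped under the minimum without GNPC 1 (-0.99), GNPC 3 (-0.99) or DBS 2 (-0.96) and with quantile normalization (-0.98).

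Cacna1a, the P/Q-type pore that carries most of the calcium current of Purkinje cells, was 339.5, 366.1 and 402.1 in GNPC, 226.8, 161.1, 211.8 and 142.2 in DBS, and 28.3 to 185.3 in tumours with a median of 95.9. It fell 3.69-fold against GNPC (adjusted p = 0.000497). Against DBS the groups overlapped and the difference of -0.94 missed the minimum. It passed without tumour 2 (-1.13), tumour 4 (-1.02) or DBS 4 (-1.04) and with an added value of 5 (-1.06). A second probe set, 1459996_at, was called lower than DBS (-1.13, adjusted p = 0.0118 over probe sets), and 1450510_a_at was not (-0.64). Cacna1c and Cacna1d encode L-type pores, which link depolarisation to gene transcription. Cacna1c was 57.9 to 154.9 in tumours, 358, 360.2 and 337.7 in GNPC, and 264.2, 522, 326.6 and 420.5 in DBS. It fell 2.80-fold and 2.95-fold (adjusted p = 0.00023 and 2.31e-05), but a second probe set was called in neither comparison (-0.69 and -0.20). Cacna1d fell 2.26-fold against DBS (adjusted p = 3.09e-05), and its -0.95 against GNPC passed the minimum without tumour 1 (-1.06).

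The T-type pores, which open at low voltage, split by tissue. Cacna1g was 437.5, 371.2 and 438.9 in GNPC and 412.3, 291.5, 441.3 and 539.7 in DBS. Tumours lay between 35.9 and 153.5 with a median of 51.2, under the array medians in 5 of 6 arrays. The falls were 5.36-fold and 5.33-fold (adjusted p = 2.49e-05 and 2.66e-06), and the normal tissues overlapped. Cacna1h was high in DBS alone, at 454.3, 447.7, 635.9 and 584, against 116.4, 49.5 and 33.9 in GNPC and 6 to 82.5 in tumours. It was 11.9-fold lower in tumours and 6.97-fold lower in GNPC than in DBS (adjusted p = 2.80e-07 and 7.66e-05). It too passed the filter through DBS alone and had to differ, and these folds depend on the added 18. Tumours and GNPC overlapped (-0.77, adjusted p = 0.101).

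All 3 beta subunit genes with a probe set past the filter fell in the tumours. Cacnb4, the beta subunit mutated in the ataxic lethargic mouse, was 194.4 to 1122.7 in tumours with a median of 590, 1989.8, 1585.8 and 1620.7 in GNPC, and 1775.7, 1185.2, 1263.4 and 1737.4 in DBS. Tumour 2, at 1122.7, came nearest to the normal samples. The falls were 3.18-fold and 2.71-fold (adjusted p = 0.00199 and 0.00162), and both further probe sets of the gene gave the same calls. Cacnb1 and Cacnb2 were dim. Cacnb1 had 6.2 to 45 in tumours, 181.9, 137.2 and 82.6 in GNPC, and 274.8, 310.5, 171.9 and 263.6 in DBS, and fell 3.98-fold and 7.29-fold (adjusted p = 0.000216 and 8.49e-07). Cacnb2 had 12.1 to 72 in tumours, 145, 143.1 and 77.7 in GNPC, and 351.6, 288.2, 269.5 and 264.3 in DBS, and fell 2.57-fold and 5.86-fold (adjusted p = 0.00435 and 3.89e-06). No tumour exceeded the array medians for either gene. Both entered the test through normal samples alone, so their falls follow from the filter in part. These folds also depend on the added 18, and with 64 in its place the Cacnb2 difference from GNPC, -0.86, missed the minimum.

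The Cacng genes, of which those past the filter encode TARPs, had no call against GNPC. Cacng2 (stargazin), which carries AMPA receptors to synapses of granule cells, was 944 to 1730.9 in tumours with a median of 1269, 1551.6, 1422.2 and 1521.6 in GNPC, and 1363.6, 1390.1, 1364.2 and 1588.5 in DBS. The 3 groups overlapped, and its differences of -0.24 ± 0.17 SE and -0.17 ± 0.16 had adjusted p of 0.258 and 0.34. A second Cacng2 probe set, 1420596_at, was higher in GNPC (1268, 1443.7 and 1346.8) than in DBS (714, 418.2, 696.2 and 442.7), a call of 1.27 (adjusted p = 0.00369 over probe sets). Cacng5 had 767.6 to 1325.9 in tumours beside 733.1 to 1133.1 in the normal samples, with differences of 0.15 and 0.08. Cacng8 was dim in all, at 105.3 to 242.2 in tumours and 124.1 to 225.9 in the normal samples, with differences of -0.03 and -0.07.

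Cacng4 and Cacng3 were the Cacng genes lower than in DBS. Cacng4 was 2144.6, 1705.2, 2145.8 and 1940.5 there, 936.8, 806 and 748.5 in GNPC and 414 to 623.1 in tumours, so no samples of different groups overlapped. Tumours and GNPC were 3.53-fold and 2.36-fold below DBS (adjusted p = 1.03e-08 and 1.60e-05), and the difference of tumours from GNPC, -0.58 (adjusted p = 0.00313), missed the minimum. Cacng3 was 155.8, 166, 180 and 205.2 in DBS, and at most 69.9 in GNPC and 60.8 in tumours, both under the array medians. Cacng7 was 61 to 194.4 in tumours, and its -0.89 against DBS passed the minimum only without tumour 5 (-1.01) or DBS 3 (-1.08), among the samples left out in turn.

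The normal tissues differed from each other too. GNPC had 9 channel genes called lower than DBS, 0 called higher and 17 not called, beside 9.68% of all genes called lower and 8.73% higher (18.4% in either direction). The samples of GNPC and DBS did not overlap for 15 of the 26 genes, beside 55.9% of all genes, and in 12 of the 15 GNPC was the lower, beside 27.3% of all genes. The median difference of the 26 was -0.44 against 0.04 for all genes. The 9 were Scn2a, Scn3a, Scn3b, Scn9a, Cacna1b, Cacna1h, Cacnb2, Cacng3 and Cacng4. Of these, Scn9a, Cacna1h and Cacng3 entered the test through DBS alone, so their place in the count follows from the filter in part. Without GNPC 3 the count was 6. Cacnb2 was 2.28-fold lower, but its call was lost without GNPC 3 (limma adjusted p = 0.0954) and with an added value of 64 (-0.96). No call went the other way. At an unadjusted limma p under 0.05 Cacna1a and Scn8a were the 2 genes higher in GNPC and 12 were lower, with no share of all genes computed. Cacna1a (0.95 ± 0.38 SE, adjusted p = 0.0553), Cacna1e (0.66) and Scn8a (0.45, adjusted p = 0.0167) were higher in every GNPC sample than in every DBS sample.

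The tumours differed among themselves more than the normal samples did. The SD of the log2 values across the 6 tumours had a median of 0.53 over the 26 genes, against 0.27 over all genes, while the median over the channel genes was 0.18 in GNPC and 0.17 in DBS. Scn2a had a ratio of highest to lowest tumour of 9.67 (after adding 18), Scn3a 7.92, Cacna2d2 7.81, Scn1a 6.80 and Cacna1e 6.36. Tumour 3 was the lowest of the 6 for 18 of the 26 genes. Tumour 2 was the highest for 12 and tumour 1 for 8. The order of the tumours was not counted over all genes, so these counts may not be particular to the channel genes. The genes peaking in tumour 2 included Scn1a, Scn2a, Scn2b, Cacna1a, Cacna2d2 and Cacnb4, and those peaking in tumour 1 included Scn3a, Scn3b, Cacna1c and Cacna1e.

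**Figure D4:**
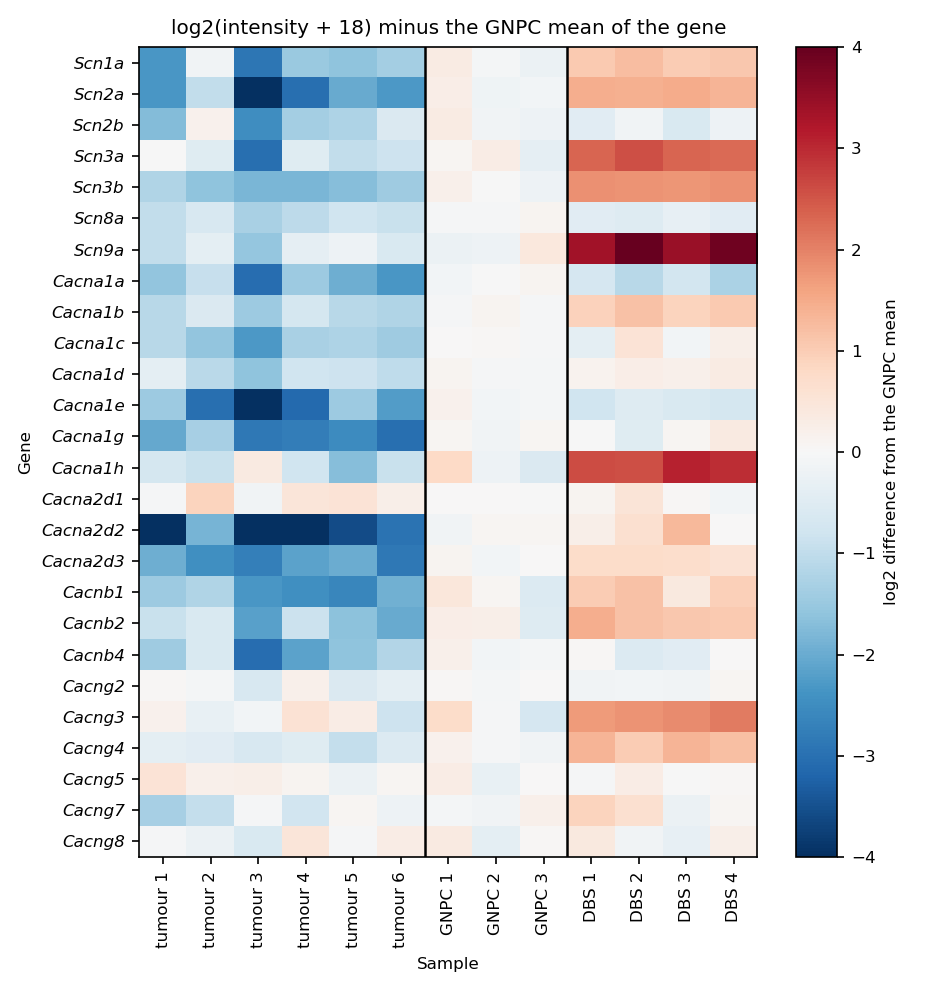
Each gene's log2(intensity + 18) in each of the 13 samples minus its mean in GNPC; blue is lower, red higher, and colours end at 4 in either direction. Tumour 3 is the darkest blue of the tumours for many genes, and Scn3a, Scn9a, Cacna1h and Cacng3 are red in the DBS columns.

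Markers of neurons differed between the groups in the same direction as many channel genes. The summed intensity of 12 pan-neuronal markers (all 12 measured) was 18212.3 to 36924.3 in tumours, 62102.8 to 69438.2 in GNPC and 106578.7 to 122982.6 in DBS. Tumour 3 had the lowest sum. No defining marker of this list was under the array median on every array, and Stmn2, a growth protein of young neurons, was still 1242.6 to 7566.3 in tumours. Of the list 8 genes fell and 0 rose against GNPC, and 10 fell and 0 rose against DBS. Their part in the falls of the channel genes was not tested.

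Markers of single neuron types differed too. The Purkinje sum (9 of 11 markers measured) was 46796.5 to 57925.1 in GNPC, 11552 to 12911 in DBS and 2642.9 to 18350.6 in tumours, with tumour 2 highest. Its Calb1 was 3812.1 in tumour 2 and 32.5 in tumour 1. Against GNPC 7 of the 9 were called lower in tumours and 0 higher, while against DBS 3 were lower and 2 higher. Pvalb was 157.3 to 4007.6 in tumours and 68.3 to 130.4 in DBS, while Slc1a6 was 6.7 to 219.8 and 227.3 to 578.2. In tumour 3, Pvalb was 4007.6 of the sum of 6911.1. The interneuron sum (6 of 8) was 669 to 4433.8 in tumours, again highest in tumour 2, 12642.8 to 14119.3 in GNPC and 16409.1 to 19756 in DBS. That of differentiated granule neurons (9 of 10) was 8247.4 in tumour 3, 15492.3 to 23616.7 in the other tumours, 39261.3 to 42506.1 in GNPC and 27637 to 30706.3 in DBS. Its members went both ways against DBS, where 2 were called higher and 4 lower in tumours. Gabra6 was 6.8 to 4620.9 in tumours and 21.3 to 34.7 in DBS, and Vsnl1 was 59.5 to 1301.9 and 9583 to 12787. In tumour 1, Reln was 15101.9 of the sum of 18993.5. The brainstem neuron sum (9 of 10) was at least 36057.4 in DBS and at most 7991.1 elsewhere. Of its members 8 were called lower and 1 higher than DBS in tumours, with the same counts in GNPC. Lhx1 was 2177.1 to 4735.6 in tumours, 2066.9 to 2398.5 in GNPC and 769.2 to 1252.6 in DBS. The part of these neuron types in the channel values was not tested.

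Markers of cells other than neurons also differed between the groups. The sum for astrocytes and Bergmann glia (9 of 9 measured) was 19832.4 to 34507.5 in tumours, 56287.6 to 57714.8 in GNPC and 43852.4 to 48103.4 in DBS. That for meninges and fibroblasts (6 of 6) was 1522.8 to 2515.6, 8650.6 to 10120.4 and 4600.9 to 7577.2 in the same order, and that for endothelium (6 of 6, with Pecam1 and Tie1 under the median on every array) 1207.1 to 2311.1, 4054.7 to 4413.2 and 3203.5 to 4133.1. The tumours were thus lowest in all 3 sums. Against DBS the astrocyte and Bergmann glia genes went both ways, with 2 called higher and 4 lower in tumours. S100b was 1504.7 to 9029.9 in tumours and 594.9 to 855.1 in DBS, while Fabp7 was 7630.2 to 12720.7 and 21512 to 26049. Microglia and macrophage markers (8 of 8) summed to 5272.9 to 14489.4 in tumours and to at most 6030.2 in normal samples, and 6 of the 8 genes rose in each tumour comparison. The choroid plexus sum (5 of 5) followed single samples, at 29102.5 in GNPC 2 against at most 2754.9 in the other GNPC samples, and from 757.3 (DBS 2) to 28566.6 (DBS 1) in DBS. Oligodendrocyte markers (9 of 10) summed to 10936.7 to 21617.8 in tumours, 19324.3 to 34076.7 in GNPC and 11535.5 to 16259.6 in DBS. The tumour sums overlapped those of both normal tissues, which did not overlap each other. In tumours 4 of the 9 genes were called lower and 0 higher against GNPC, and 1 lower and 0 higher against DBS. Mbp was 412.3 to 9543.3 in tumours and 12743 to 20462.9 in GNPC, while Pdgfra was 2511 to 7401.5 and 2192.1 to 2625.3. The part of these cells in the channel values was not tested.

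Sums for dividing cells and granule neuron precursors ran the other way. They were 38143.2 to 47553.5 and 62409.2 to 74528.9 in tumours, against 18042.7 to 23550.3 and 37432.8 to 40990.3 in GNPC and 3855.5 to 6486.3 and 17047.4 to 21684.1 in DBS (5 of 6 and 10 of 10 markers). Without tumour 2 the channel genes called lower numbered 15 against GNPC and 20 against DBS, and without tumour 3 they numbered 12 and 18. Calls over all genes moved too. With each sample left out in turn, 2243 to 2658 were called in either direction against GNPC and 4362 to 4548 against DBS. Skeletal muscle markers summed to 3753.6 in DBS 4 and to at most 1354.7 in any other sample, while the muscle channel genes Cacna1s and Cacng1 stayed at 46.8 or less on every array. The log2 ratio of 3′ to 5′ control signal, a sign of RNA quality, was 1.33 to 1.59 in tumours, 1.11 to 1.19 in GNPC and 1.23 to 2.43 in DBS. Its part was not tested.

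The first list of other genes of these pathways, partners that bind or anchor sodium channels, holds ankyrins, spectrin Sptbn4, the intracellular FGFs, contactins and axonal adhesion proteins. Of its 13 genes, all tested, 11 fell and 0 rose against GNPC (median -1.35), and 8 fell and 1 rose against DBS (median -1.32). Nfasc, the neurofascin of initial segments and nodes, was 191 ± 34.0 (SD, n = 6) in tumours against 1251 ± 387 (n = 3) in GNPC and 856 ± 141 (n = 4) in DBS, 5.92-fold and 4.19-fold lower. Fgf12, which binds the tail of sodium channels, was 4.37-fold and 9.54-fold lower, and its relative Fgf13 3.22-fold and 7.55-fold lower. Cntn1, a contactin of axons, was 3.63-fold and 4.73-fold lower. The gene that rose against DBS was Cntn2 (3.31-fold), a contactin of young granule cell axons, and it fell against GNPC (2.11-fold). It was named after its values were seen.

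Partners of calcium channels at release sites and in the membrane numbered 23, of which 14 were tested. Against GNPC 6 fell and 1 rose, and against DBS 12 fell and 1 rose. Syt1, the calcium sensor of release, was 8.22-fold and 15.8-fold lower. Erc2 and Rims1, scaffolds of the presynaptic active zone, were 3.72-fold and 4.67-fold lower than in GNPC and 13.1-fold and 8.09-fold lower than in DBS. The gene that rose in both was Rrad, a small GTPase that binds beta subunits and restrains calcium channels, at 113 ± 22.6 (SD, n = 6) in tumours, 30.0 ± 11.6 (n = 3) in GNPC and 36.3 ± 25.2 (n = 4) in DBS (2.74-fold and 2.62-fold higher, limma adjusted p = 0.0023 and 0.000848). It was named after its values were seen, and all 3 means lie near or under the array medians.

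For channels of internal calcium stores, of 11 listed and 9 tested genes 5 fell and 0 rose against GNPC, and 4 fell and 0 rose against DBS. The ryanodine receptors Ryr1, Ryr2 and Ryr3, which release calcium from the endoplasmic reticulum, were among them in both. Ryr3 went from 500 ± 112 (n = 3) in GNPC and 1208 ± 163 (n = 4) in DBS to 39.9 ± 11.8 (SD, n = 6) in tumours, 8.96-fold and 21.4-fold lower. Related cation channels, with 13 listed and 6 tested, had 0 called against GNPC. Against DBS 2 fell and 1 rose: Hcn3, a pacemaker channel, was 5.56-fold lower, Unc80, a subunit of the sodium leak channel, 3.01-fold lower, and Tpcn1, a channel of endosomes, 2.99-fold higher.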

How the data were processed

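Biotinylated RNA was made from 100 ng of total RNA by the 2-cycle Affymetrix protocol, per the labels' protocols. The deposited values are linear intensities; MAS5 is named, with no role or version, in the submitters' processing notes. In the file each array has a mean of 500 after 2% is trimmed at each end, so scaling was global, and detection calls were not used here. Controls aside, the array has 45037 probe sets, of which 34945 have 1 symbol in the platform annotation, 932 have several and 9160 have none. Groups follow the source names, and replicates are numbered in accession order. Values were tested as log2(value + 18) in R 4.3.3 with limma 3.58.1: 1 mean per group over 13 samples, eBayes with an intensity trend (4.5 prior and 10 residual degrees of freedom), and Benjamini-Hochberg adjustment. The fit was tested on simulated data. With 3 to 6 arrays a group, their number limits the precision. Members, gene lists and the rule for named genes (each member may be named, and of each partner list up to 4 by the larger of their 2 tumour differences, with Cntn2 and Rrad added after their values were seen) were chosen with earlier results of these data known. Alternatives covered the pseudocount, filter, scaling, probe set summary, samples fitted, prior and each left-out sample.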

Additional observations from a re-analysis of the deposited data

Results flagged for a closer look

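In 52 groups looked at (26 genes in tumours and in DBS), 2 had a sample set apart from the others relative to the range of its group. Such a gap can be small in intensity, and chance flags about 1 in 20 groups. Scn3a was 15.6 in tumour 3, the lowest of 6, with the other tumours between 117.2 and 248. Cacng2 was 1588.5 in DBS 4, the highest of 4, with the others between 1363.6 and 1390.1.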

How the results depend on the processing

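Of 1785 refits of single genes, 24 lost a call, 20 gained one, 31 differences that were not called changed sign (Cacng8 and Cacng3 among them) and 0 turned a called direction. Calls that held in every setting in which the gene was measured numbered 11 of 14 (tumours against GNPC; exceptions Cacna1b, Cacnb2 and Scn2b), 17 of 18 (against DBS; exception Cacna1c, -0.88 with the mean of its probe sets) and 6 of 9 (GNPC against DBS; exceptions Scn2a, Cacna1b and Cacnb2). Leaving out each sample gave 12 to 16, 18 to 20 and 6 to 10 channel genes lower, and 0 higher in each. Over all genes those fits called 2243 to 2658, 4362 to 4548 and 2000 to 2304 in either direction. With the mean of probe sets, 1 channel gene, Scn2b, was higher in GNPC than in DBS. That mean includes probe set 1430648_at, which exceeded the array median in no DBS sample. This call, and the higher calls of that probe set counted next, therefore follow from the filter in part. Counted as 50 member probe sets of 21628, those lower were 23, 32 and 17 in the same order and those higher 0, 2 and 3, and calls over all probe sets were 4003, 7495 and 3725. These are larger because a gene can count more than once. No paired analysis was possible because the labels give no replicate numbers and each sample is a different mouse. Depth has no counterpart here, and genes near background have folds set by the pseudocount.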
